A study of Danio rerio with 67 samples.

Results

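The 3 genes isg15, ifi27.1 and rsad2 were followed in single zebrafish spinal cord cells, out of 32266 genes in the deposited count table. They were selected on their CPM and detection in these same cells, which had shown a difference between groups, so their differences are given as a description with no test. They were found in the table by the identifiers ENSDARG00000086374 (isg15) and ENSDARG00000017489 (ifi27.1) and by the symbol RSAD2, which belonged to the single gene ENSDARG00000004952. In what follows, a gene was called detected in a cell when it had 5 or more reads there, and levels are CPM, the reads of a gene scaled to all gene reads of the cell or of the summed cells.

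Type I interferons bind a receptor pair at the cell surface and act through the Janus kinases and a complex of STAT transcription factors with IRF9, which switches on a large set of interferon-stimulated genes. ISG15 is a ubiquitin-like protein that is joined to other proteins, and in mammals it is also released from cells. IFI27 proteins are small hydrophobic proteins of intracellular membranes, described at the mitochondria in mammalian cells, and RSAD2 (viperin) is a radical-SAM enzyme that in mammals makes a nucleotide blocking viral RNA synthesis. All of them are widely used as readouts of interferon signalling.

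The cells came from adult fish that carry the transgene Tg(olig2:eGFP), in which the olig2 promoter drives a green fluorescent protein. In the lesion group the spinal cord was transected 5 mm caudal to where the brainstem meets the cord, and tissue was taken after 7 days. The sham group had the same operation with the cord left intact. About 0.5 mm of cord just rostral to the lesion, or from the matching level, was taken from 9 fish per group and pooled. The tissue was digested with papain, and live (calcein-labelled) fluorescent cells were sorted into wells. There were 35 sham and 32 lesion cells. Each group was therefore 1 pool, and the cells are not replicates of the operation. By their well names, the sham group took columns 1 to 6 of the plate and the lesion group columns 7 to 12, so operation, pool and plate column cannot be told apart.

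Reads on genes per cell ranged from 245408 to 771417 in sham (median 550763) and from 280129 to 620323 in lesion (median 431348.5). The labels call all cells oligodendrocyte progenitor cells (OPCs), but 29 of 35 sham cells (82.9%) and 17 of 32 lesion cells (53.1%) had plp1b, a major protein gene of myelin, at or above 10000 CPM. The cell just under that threshold had 614 CPM and the cell just above it 19557 CPM. In the cells above it, 11 of 12 oligodendrocyte marker genes were each detected in at least 50% of the cells in both groups, so these are called plp1b-high cells and the remaining 6 sham and 15 lesion cells plp1b-low cells. The median number of genes with at least 1 read was 2154 in sham and 2875 in lesion plp1b-high cells, and 2986 and 3464 in plp1b-low cells.

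The genes lie apart in the genome and none overlapped another annotated gene, on the GRCz10 build and Ensembl 87 annotation of the count table. isg15 lies on chromosome 5 from 19608232 to 19609484 on the plus strand, with 2 exon intervals and 1141 exonic bases. ifi27.1 lies on chromosome 13 from 37480006 to 37482551 on the minus strand, with 1222 exonic bases, at 1 end of a row of 8 ifi27 genes. rsad2 lies on chromosome 17 from 35409505 to 35413376 on the minus strand, with 6 exon intervals and 1623 exonic bases. Its next gene, CMPK2, starts 1529 bases away. Counts took no account of strand.

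isg15, the ubiquitin-like modifier, was detected in 4 of 35 sham cells and in 16 of 32 lesion cells. The sham cells with it had 35, 93.3, 338 and 604 CPM, and all were plp1b-high. In the 16 lesion cells it ranged from 47.8 CPM to 2841 CPM, in both plp1b classes. Over all cells of a group the median was 0 CPM in sham and 23.9 CPM in lesion. The groups overlapped, since 16 lesion cells and 31 sham cells were without it, but 6 lesion cells stood above the highest sham cell.

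The share of cells with isg15 was 11.4% in sham (exact 95% binomial interval 3.20 to 26.7%) and 50% in lesion (31.9 to 68.1%). These intervals cover counting error only, since the cells of a group share 1 pool. A difference in share at least this high was found for 0.984% of the 9963 measured genes, those with at least 1 CPM in the summed counts and 5 or more reads in at least 3 cells. The reads of isg15 summed over all cells of a group came to 21.2 CPM in sham and, in lesion, to 321 CPM. The log2 ratio of lesion over sham, with 1 CPM added to each group, was 3.86, or 14.5-fold. A ratio at least this high was found for 6.12% of measured genes. Without the sham cell in well C03 the sham level was 13.3 CPM and the log2 ratio 4.49, and without that in well D03 they were 13.1 CPM and 4.52. By the same measure, 31.5% of measured genes were at least 2-fold higher in lesion and 21.2% at least 2-fold lower, with a median log2 ratio of 0.19. With DESeq2 size factors these shares were 26.5% and 27.09%, since that scaling moved the median by -0.29 and TMM scaling moved it by -0.24.

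Among plp1b-high cells, isg15 was detected in 4 of 29 sham cells (13.8%) and 11 of 17 lesion cells (64.7%). Its median level was 0 CPM in sham and 125 CPM in lesion, and its highest values were 604 and 1938 CPM. The summed level was 24.6 against 331 CPM, a log2 ratio of 3.70, and 4.34 or 4.36 without C03 or D03. In this class 6.16% of measured genes had a log2 ratio at least as high as 3.70. Of all measured genes, 25.5% were at least 2-fold higher in lesion and 26.3% at least 2-fold lower.

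Among plp1b-low cells isg15 had no read in any of the 6 sham cells, and it was detected in 5 of 15 lesion cells (33.3%). A count of 0 of 6 cells allows a share of up to 45.9% by the exact binomial interval. The 5 lesion cells had 95.4, 489, 549, 659 and 2841 CPM. Against a floor of 3 reads over the sham cells, the lesion level of 309 CPM was at least 265-fold higher, by counting alone and on 6 sham cells. In this class 2-fold higher levels in lesion were found for 44.6% of measured genes and 2-fold lower ones for 23%. The plp1b-low cell at 2841 CPM, in plate well C09, held 56.1% of the isg15 reads of the lesion plp1b-low cells, and the class stood at 145 CPM without it, a log2 bound of 6.96 in place of 8.05.

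**Figure D1:**
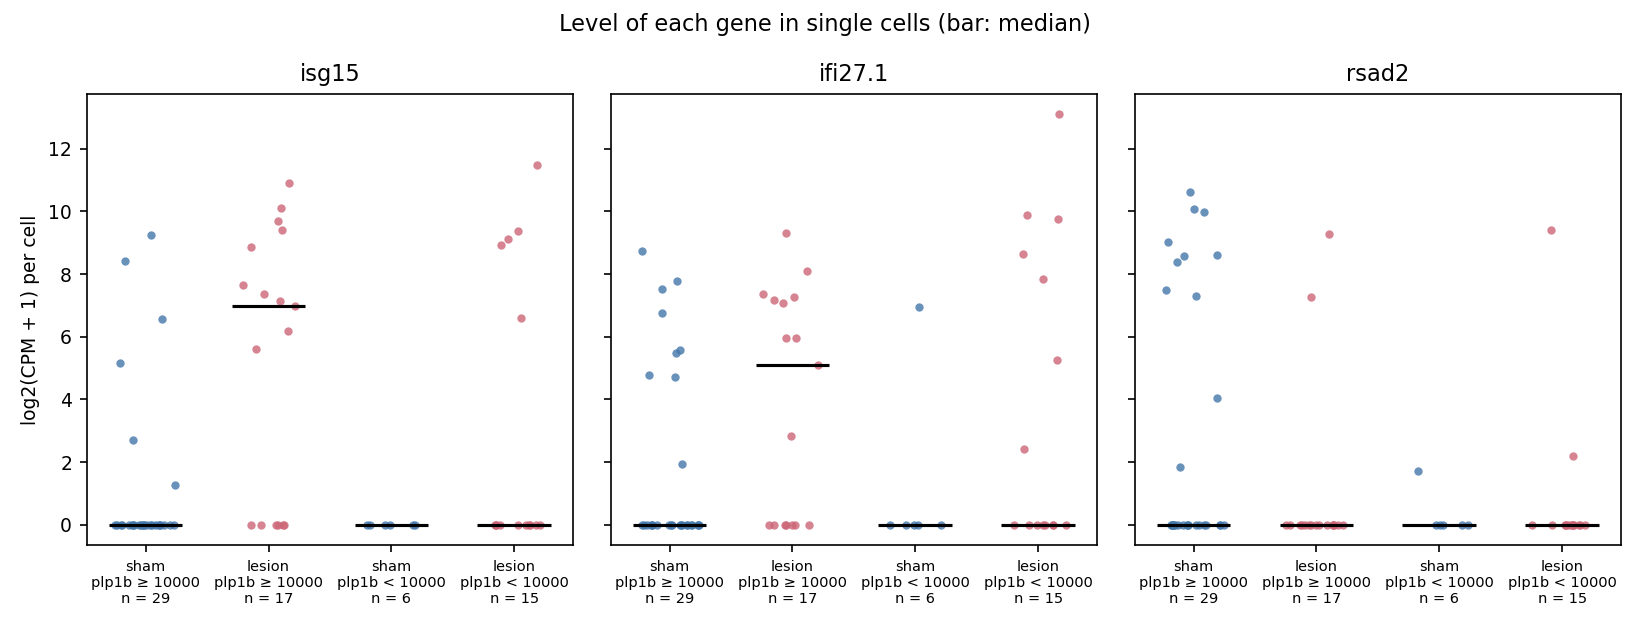
Level of isg15, ifi27.1 and rsad2 in each cell as log2(CPM + 1), in 29 sham and 17 lesion plp1b-high cells and 6 sham and 15 lesion plp1b-low cells; each point is 1 cell and the bar is the median. For isg15 the median is above 0 only in lesion plp1b-high cells (125 CPM), and the highest rsad2 cells are sham plp1b-high cells.

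ifi27.1, the small membrane protein gene, was detected in 9 of 35 sham cells and in 15 of 32 lesion cells. The 9 sham cells ranged from 25.3 to 427 CPM and 8 of them were plp1b-high. The 15 lesion cells ranged from 33.6 to 8814 CPM, and 9 of them were plp1b-high. The median over all cells was 0 CPM in sham and 5.23 CPM in lesion, and in lesion plp1b-high cells it was 33.6 CPM. The ranges overlapped in all but 4 lesion cells, which stood above the highest sham cell with 634, 865, 955 and 8814 CPM.

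The shares with ifi27.1 were 25.7% in sham and 46.9% in lesion, and 10.9% of measured genes had a difference at least this high. Summed over cells, ifi27.1 came to 30.4 CPM in sham and to 379 CPM in lesion, a log2 ratio of 3.60. A ratio at least this high was found for 7.40% of measured genes. The cell in well C09 alone held 63.7% of the lesion reads, and without it the log2 ratio was 2.18. Among plp1b-high cells, which do not include C09, ifi27.1 was detected in 8 of 29 sham cells (27.59%) and 9 of 17 lesion cells (52.9%), and stood at 33.4 against 102 CPM, a log2 ratio of 1.59. A ratio at least as high as 1.59 was found for 18.5% of measured genes in that class. Within that class the cells of plate rows F to H gave a log2 ratio of 1.75 and those of rows B to E 0.31. Leaving out well G08 took the lesion level to 66.7 CPM and the log2 ratio to 0.98, and leaving out the sham well G05 took the sham level to 21.7 CPM and the log2 ratio to 2.185. Among plp1b-low cells it was detected in 1 of 6 sham cells (at 122 CPM) and in 6 of 15 lesion cells (40%), with a summed level of 11.7 against 719 CPM, or 193 CPM in lesion without C09. All sham plp1b-low reads of ifi27.1 were in well G03, and the log2 ratio of 5.83 was 3.94 without C09 and at least 9.12 by counting alone without G03.

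The cell in well C09 also had the highest isg15 level of all. Its plp1b level was 2.67 CPM, and it had 694 CPM of OLIG2 and 4 detected OPC markers with 2547 CPM together. None of the microglia and macrophage markers was detected in it. Detected markers from other lists were tubb5 of the neuron list at 6026 CPM, cnp of the oligodendrocyte list at 1853 CPM, S100B of the ependymo-radial glia and Schwann lists at 804 CPM, nccrp1 of the neutrophil list at 710 CPM and TAGLN of the pericyte and fibroblast list at 625 CPM. Their part in its isg15 and ifi27.1 levels was not tested. It held 1527 genes with a read, near the lowest number among lesion cells (1503).

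ifi27.1 is 1 of 8 ifi27 genes in tandem on the minus strand of chromosome 13, from 37480006 to 37530800. The nearest copy, ifi27.3, had 1 read over all cells, and ifi27.5 had 21, all in C09. ifi27.2 had 3 sham reads and 1091 lesion reads, of which 1029 were in C09. ifi27.6 had 2 sham and 266 lesion reads, of which 228 were in C09, and ifi27.7 had 26 and 225, with none in C09. The remaining copies differed by less than 2-fold between the groups, with ifi27.4 at 54.3 (sham) and 55.5 CPM (lesion) and ifi27.8 at 42.2 and 66.1 CPM. For ifi27.8 the log2 ratio was 0.63, and 0.06 without C09. For ifi27.4, detected in 4 sham and 8 lesion cells, the log2 ratio of 0.03 turned sign with TMM or DESeq2 scaling. Reads that fit several copies may have been lost in counting, so the split between these genes is uncertain.

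rsad2, the radical-SAM enzyme gene, had the opposite order of groups. It was detected in 10 of 35 sham cells and in 3 of 32 lesion cells. The 10 sham cells ranged from 15.6 to 1585 CPM, with 3 at or above 1008 CPM, and all were plp1b-high. The 3 lesion cells had 152, 625 and 671 CPM, inside the sham range, and the last of them was plp1b-low. The median over all cells was 0 CPM in both groups.

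The share of cells with rsad2 was 28.6% in sham (14.6 to 46.3%) and 9.38% in lesion (1.98 to 25%), and the intervals overlapped. A difference at least as low was found for 1.54% of measured genes. The summed level was 154 CPM in sham and 48.7 CPM in lesion, a log2 ratio of -1.64, or 3.12-fold lower. The log2 ratio was -2.60 without well G11, which held 51.6% of the lesion reads. A ratio of -1.64 or lower was found for 12.1% of measured genes. Among plp1b-high cells rsad2 was detected in 10 of 29 sham cells (34.5%) and 2 of 17 lesion cells (11.8%). Its levels there were 178 against 42.5 CPM, a log2 ratio of -2.04, and 13.5% of measured genes had a ratio at least as low. Without well G07 the lesion level was 13.1 CPM and the log2 ratio -3.67. The sham cell with the most rsad2, in well B02, held 25.1% of the sham reads of the gene and had reads of the most genes of any cell (6198). Leaving out the cells with over 5000 genes gave a log2 ratio of -1.15 over all cells and -1.55 in plp1b-high cells.

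All 3 lesion cells with rsad2 were in plate rows F to H. Within F to H, 3 of 15 lesion cells and 5 of 16 sham cells had it, with a log2 ratio of -0.28. Within B to E it was detected in 0 of 17 lesion cells, which held 2 reads together, and in 5 of 19 sham cells, with a log2 ratio of -7.16. The part of the plate row in the lower lesion level was not tested. In plp1b-low cells sham had 1 read and lesion 345 reads, 343 of them in well G11, so no order of the groups can be read there. CMPK2, the neighbour of rsad2, which encodes a mitochondrial nucleotide kinase, had no sham read and 64 lesion reads, and it was detected in 1 lesion cell, which had no rsad2 read.

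Compared per kilobase of exonic length, the summed levels in sham cells were highest for rsad2, at 94.7 CPM per kb, then ifi27.1 at 24.9 and isg15 at 18.6. In lesion cells the order was ifi27.1 at 310, isg15 at 282 and rsad2 at 30.0 CPM per kb. C09 held 24.2% of the lesion isg15 reads and 63.7% of the lesion ifi27.1 reads. In lesion plp1b-high cells, isg15 stood at 290 CPM per kb, ifi27.1 at 83.8 and rsad2 at 26.2.

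**Figure D2:**
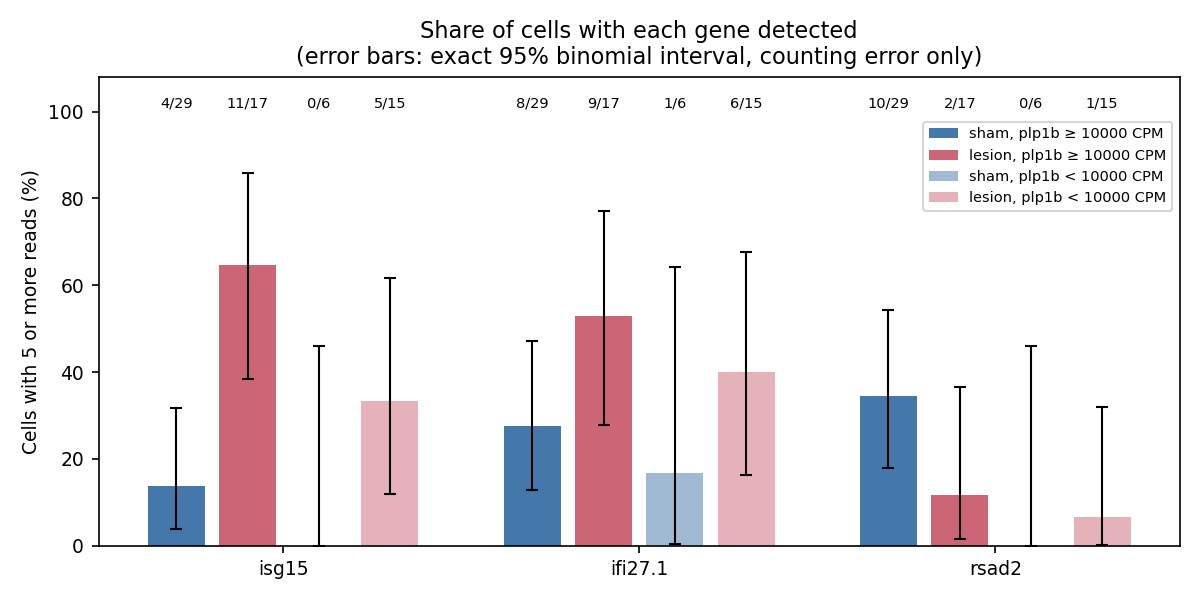
Percent of cells with 5 or more reads of each gene, in sham and lesion cells of each plp1b class, with exact 95% binomial intervals for counting error. isg15 reaches 64.7% in lesion plp1b-high cells against 13.8% in sham, whereas rsad2 is at 34.5% in sham and 11.8% in lesion.

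The order of the shares was the same at 1 common depth. With every cell thinned to 301650 reads, leaving out 4 shallower sham cells and 3 lesion cells, isg15 was detected in 9.68% of 31 sham cells and in 51.7% of 29 lesion cells. The thinned shares of ifi27.1 were 22.6% and 48.3%, and those of rsad2 were 29% and 10.3%.

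The 3 genes were then followed jointly in single cells. At least 1 of the 3 genes was detected in 16 of 35 sham cells (45.7%, exact interval 28.8 to 63.4%) and 21 of 32 lesion cells (65.6%, 46.8 to 81.4%). In sham, rsad2 alone was the most common pattern, in 6 cells, followed by ifi27.1 alone in 4. In lesion no cell had rsad2 alone, and isg15 with ifi27.1 was the most common pattern, in 7 cells, followed by isg15 alone in 6 and ifi27.1 alone in 5. All 3 genes were detected together in 2 sham cells, in wells B02 and C03, and in 3 lesion cells, in wells F10, G07 and G11. No cell of either group had isg15 and rsad2 without ifi27.1.

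Seen from rsad2, 2 of its 10 sham cells also had isg15, whereas all 3 of its lesion cells had isg15 and ifi27.1. Of the 15 lesion cells with ifi27.1, 10 had isg15, against 6 of the 17 without it. Among lesion plp1b-low cells, 4 of 6 with ifi27.1 and 1 of 9 without it had isg15. In lesion plp1b-high cells the shares were 6 of 9 and 5 of 8. Of the plp1b-high cells, 14 of 29 sham cells and 3 of 17 lesion cells had none of the 3 genes, and among plp1b-low cells 5 of 6 and 8 of 15 had none.

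The levels in single cells followed each other loosely. Over the 67 cells, which share pools, plate and depth within groups, Pearson's r of log2(CPM + 1) was 0.46 between isg15 and ifi27.1, 0.13 between isg15 and rsad2 and 0.11 between ifi27.1 and rsad2. For isg15 and ifi27.1 it was 0.23 in sham cells and 0.46 in lesion cells, and within lesion cells 0.17 in the 17 plp1b-high and 0.71 in the 15 plp1b-low cells.

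**Figure D3:**
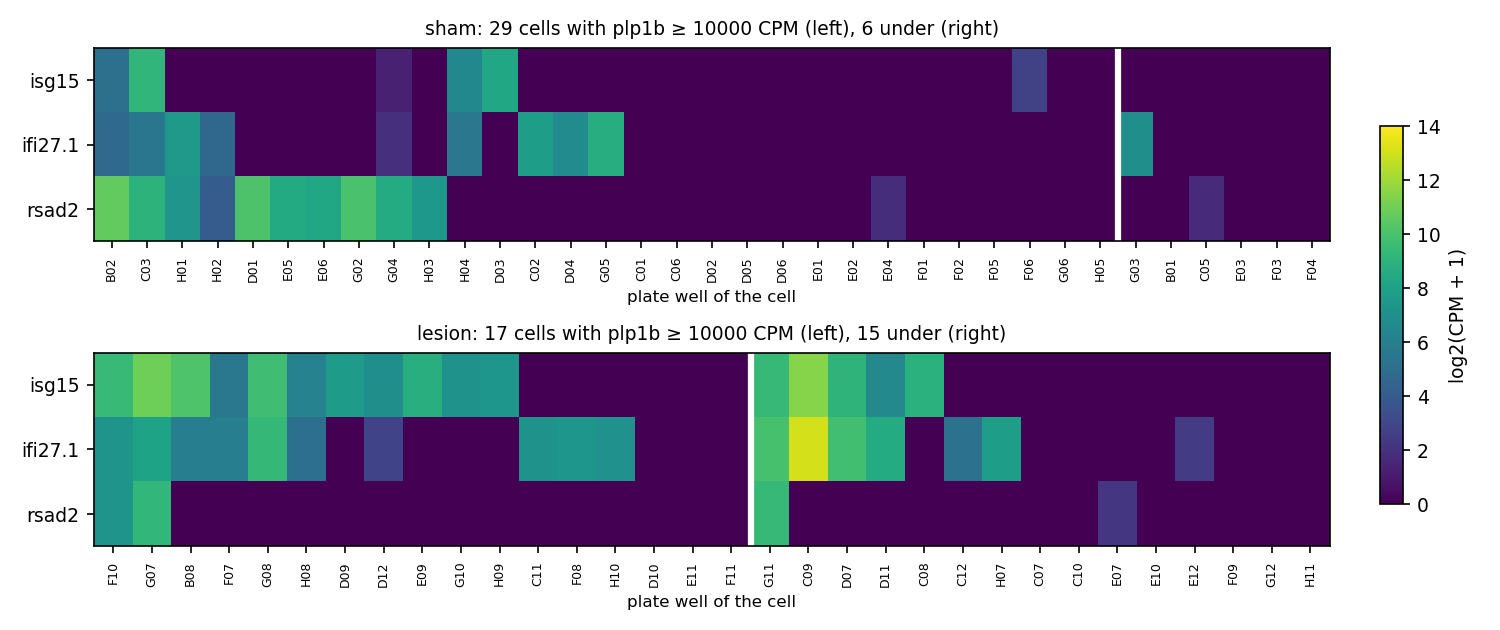
Each column is 1 cell, named by its plate well, and each row 1 of the 3 genes, with colour for log2(CPM + 1); plp1b-high cells stand left of the white line. None of the genes is detected in 19 sham and 11 lesion cells; 10 sham cells hold rsad2 or ifi27.1 alone, while 7 lesion cells hold isg15 with ifi27.1 and 3 hold all 3 genes.

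The other genes of the pathway were taken from a list of 189 symbols, which matched 147 gene identifiers, and 62 of these besides the 3 genes were measured. Of these, 23 (37.1%) were at least 2-fold higher in lesion and 9 (14.5%) at least 2-fold lower, with a median log2 ratio of 0.41. That stands beside 31.5%, 21.2% and 0.19 over all measured genes. In plp1b-high cells 16 were higher (25.8%, beside 25.5% of measured genes) and 12 lower (19.4%, beside 26.3%), so the share of higher genes was that of the background. The median there was 0.24 beside 0.00.

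The effectors, the antiviral products that include ifi27.1 and rsad2, had the highest median of any measured role, while isg15 was listed with the genes of its own conjugation. Of the other 15 measured, 10 were at least 2-fold higher in lesion and 1 at least 2-fold lower, with a median of 2.21. The counts were the same with TMM and DESeq2 scaling. Among the higher ones, gbp1, gbp2, ifi44a1, ifi35, ifi27.2 and ifi27.6 were detected in no sham cell and passed the filter through lesion cells alone. The lower one, ifit11, passed through sham cells alone. The direction of these genes was thus largely set by the filter, which limits the counts and medians in both sets of cells. Of the lesion reads, C09 held 1029 of 1091 for ifi27.2 and 228 of 266 for ifi27.6. In plp1b-high cells 9 were higher and 1 lower (60% and 6.67%, beside 25.5% and 26.3% of measured genes), with a median of 1.77. gbp1, a guanylate-binding GTPase of the interferon response, was detected in 0 sham and 8 lesion cells and stood at 0.214 against 121 CPM, with 47.7% of its lesion reads in 1 cell. The following effectors were picked after their values were seen: ifi44a1 was detected in 0 and 4 cells, gbp2 in 0 and 4, mxe, an Mx GTPase, in 1 and 3, and ifit11 in 3 and 0. These were few cells. The single lower gene, ifit11, was detected in sham cells alone, whereas rsad2, also lower in lesion, was detected in 3 lesion cells.

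The roles upstream of the effectors had medians nearer to 0. Of 4 measured receptor chains 1 was higher and none lower. The higher one was ifngr1l, with a log2 ratio of 1.72, detected in 1 sham and 2 lesion cells. Both crfb1 and ifngr2 differed by less than 2-fold. crfb1, a type I interferon receptor chain of fish, was at 25.7 (sham) and 41.1 CPM (lesion), and ifngr2 at 204 and 144 CPM. No interferon gene passed the filter for measured genes. ifnphi1 and ifnphi3 were each detected in 1 lesion cell and in no sham cell.

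Of the 5 kinases and STAT-complex genes, 2 were higher and none lower with a median of 0.71. irf9, which gives the STAT complex its DNA specificity, was detected in 7 sham and 18 lesion cells and stood at 96.6 and 253 CPM. The 2 higher genes were irf9, with a log2 ratio of 1.38, and jak2a, with 2.24. JAK1, a kinase bound to the receptor, stood at 141 and 232 CPM, a log2 ratio of 0.71 and so under 2-fold. With TMM or DESeq2 scaling, 2 were higher and 1 lower.

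Of 3 interferon regulatory factors and their partners, none was higher and 1 lower, or 2 lower with TMM or DESeq2 scaling. irf1b had 82.2 CPM in sham and, in lesion, 150 CPM, whereas irf2a and IRF2BP1 had log2 ratios of -0.99 and -2.27. Of 6 RNA sensors and adaptors 1 was higher (MYD88, log2 ratio 1.51) and 2 lower (TRAF6 at -2.90 and TBK1 at -1.28). DHX58, an RNA-sensing helicase, was detected in 1 sham and 5 lesion cells, but its log2 ratio of 0.92 was under 2-fold. In plp1b-high cells none of the 6 was higher and 4 were lower (66.7%, beside 26.3% of measured genes), with a median of -1.66. Of the 9 negative regulators 2 were higher and 3 lower: SOCS3 (ENSDARG00000026611), an inhibitor of cytokine signalling, stood at 50 and 165 CPM, and NLRX1 at 53.2 and 7.32 CPM. The other measured SOCS3 gene (ENSDARG00000025428) went the other way, with a log2 ratio of -0.65, under 2-fold. Of the 20 antigen presentation genes 7 were higher (35%, beside 31.5% of measured genes) and 2 lower (10%, beside 21.2%). The higher ones psmb12 and psmb13a had no sham read and passed the filter through lesion cells alone. b2m, which encodes the light chain of class I molecules, was detected in 7 sham and 24 lesion cells. b2ml stood at 977 and 1003 CPM and turned sign with TMM or DESeq2 scaling.

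**Figure D4:**
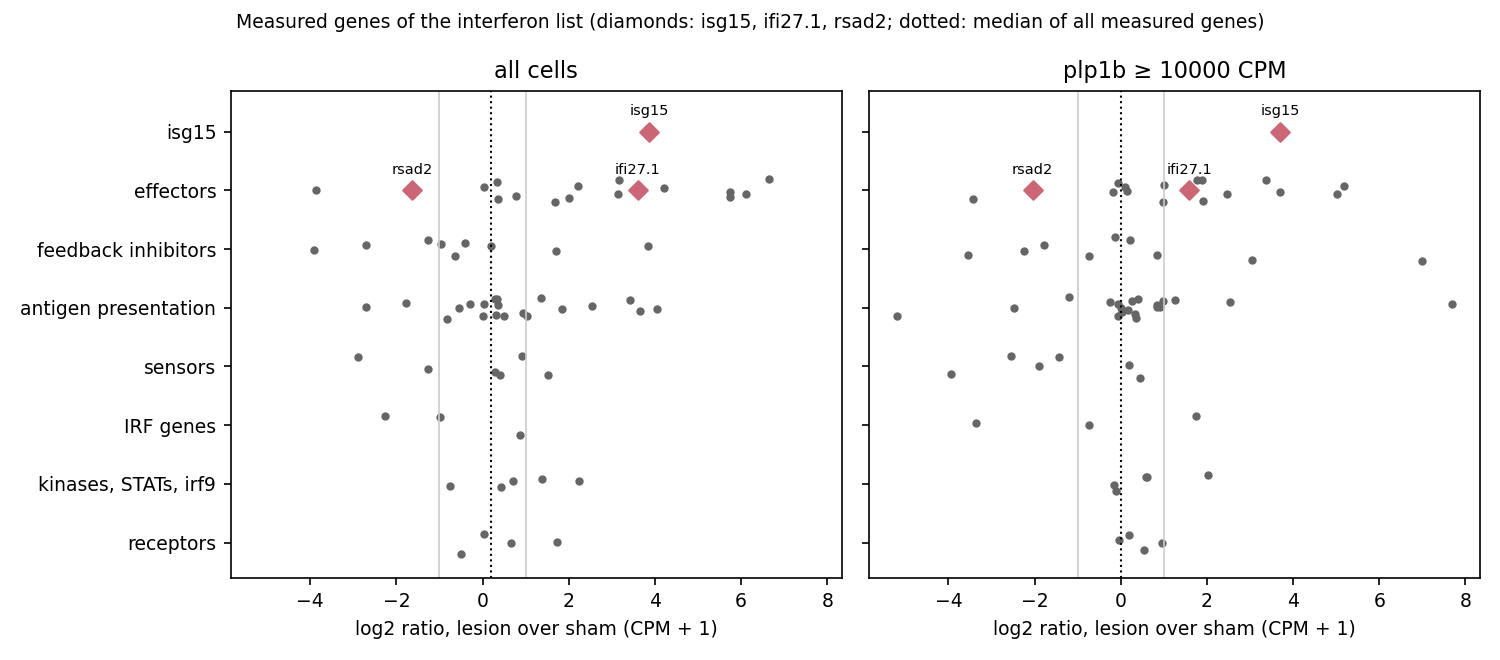
Log2 ratio of lesion over sham (CPM + 1) of the 62 measured interferon list genes by role, in all cells and in plp1b-high cells; diamonds mark isg15, ifi27.1 and rsad2 and the dotted line is the median of all measured genes. The effectors lie highest, with a median of 2.21 over all cells, though some of them passed the filter through lesion cells alone.

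Within lesion plp1b-high cells, the 11 with isg15 were set beside the 6 without it. ifngr2 was detected in 8 of 11 and 0 of 6, b2m in 8 and 3, and PDIA3, a chaperone of MHC class I loading, in 9 and 3. gbp1 was detected in 2 of 11 and 0 of 6, and irf9 in 6 and 3. Other genes had the reverse order: trim25, a ubiquitin ligase, was detected in 5 of 11 and 4 of 6, JAK1 in 3 and 3, and SOCS1 in 2 and 2. Median numbers of genes were 3042 and 2520.5 in these cells, and the part of the number of genes in these counts was not tested. The share of all measured genes with differences this large is not given here. The counts are therefore not read as particular to cells with isg15.

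Within sham plp1b-high cells, the 10 with rsad2 were set beside the 19 without it. irf1b was detected in 7 of 10 and 5 of 19, and ifngr2 in 6 and 5. gbp1 was detected in neither, and b2m in 1 and 0. Other genes had the reverse order, with trim25 in 2 of 10 and 5 of 19 and IRF2BP1 in 0 and 2. Median numbers of genes were 2631.5 and 2149, and their part was not tested here either. The share of all measured genes with such differences is again not given, so these counts are not read as particular to cells with rsad2.

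Of the other 15 effectors, ifi27.2, ifi27.4 and ifi27.6 lie in the same row of copies as ifi27.1, and the split of reads is uncertain. The number of these 15 detected in a cell was low in all cells. In sham cells its median was 0 with none of the 3 genes, 0 with 1, 1 with 2 and 1 with all 3. In lesion cells the medians were 1, 1, 1 and 2. Within lesion plp1b-high cells they were 0, 0, 1 and 4, on 3, 8, 4 and 2 cells. Within lesion plp1b-low cells they were 1.5, 1, 4 and 2, on 8, 3, 3 and 1 cells. The highest numbers over all lesion cells were 4, 5, 6 and 6 in the same order. There the cells with all 3 genes, at 2 to 6, lay within the range of the others. In lesion plp1b-high cells the highest numbers were 1, 5, 1 and 6. The median number of genes with a read was 2205, 2015, 3143 and 4583 along the same order in sham cells and 3184, 2875, 4463 and 3042 in lesion cells, and its part was not tested. G07, which had all 3 genes, had 6 of the 15 effectors and 4230 genes. B02, the sham cell with the most rsad2, had none of them, though all 3 genes were detected there.

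**Figure D5:**
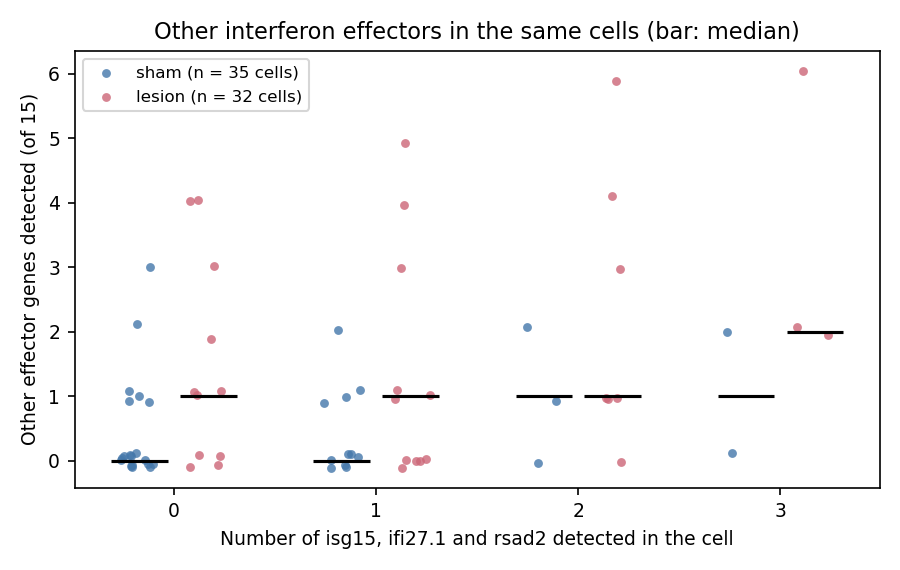
Number of the other 15 measured effector genes detected in each cell against how many of isg15, ifi27.1 and rsad2 were detected in it; points are cells, shifted slightly so that they do not hide each other, and bars are medians. The 3 lesion cells with all 3 genes had 2 to 6 effectors and the 2 sham cells 0 to 2, and lesion cells with fewer of the genes reached 6 too. The 15 include ifi27.2, ifi27.4 and ifi27.6, copies in the same row as ifi27.1.

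Microglia and macrophages, which can express interferon-stimulated genes, were looked for by 27 marker genes. In sham 2 of the 27 were detected in any cell and in lesion 7, and the summed level ranged from 0 to 3051 CPM per cell in sham and from 0 to 31012 CPM in lesion. Most of it was apoeb, which other glia also express, at 473 and 4787 CPM, and lgals2a was detected in 0 sham and 9 lesion cells. The part of these markers in the levels of the 3 genes was not tested. The defining genes c1qa, c1qb, c1qc, csf1ra and P2RY12 had no read in either group. Other markers of the list went the other way. AIF1L was detected in 5 sham and 14 lesion cells, at 46.3 and 144 CPM. One copy each of MPEG1 and MFAP4, as well as cd68 and apoc1, were each detected in 1 lesion cell and in no sham cell. No sham cell and 3 lesion cells had 3 or more of these markers (wells F07, H10 and C07), of which F07 had 47.8 CPM of isg15 and 61.4 CPM of ifi27.1, H10 had 133 CPM of ifi27.1 and C07 had none of the 3 genes. Of 7 neutrophil markers, lyz, MMP9 and both copies of CXCR1 had no read. nccrp1 was detected in 8 sham and 5 lesion cells, and it was the single neutrophil marker detected in lesion. All 5 of those lesion cells (C09, F10, G07, H08 and D12) had isg15, out of 16 with isg15 and 16 without. In sham, 1 of the 4 cells with isg15 and 8 of the 31 without it had a neutrophil marker. For ifi27.1 these numbers were 6 of 9 and 3 of 26 in sham, and 4 of 15 and 1 of 17 in lesion. For rsad2 they were 2 of 10 and 7 of 25 in sham, and 2 of 3 and 3 of 29 in lesion. The 5 lesion cells with nccrp1 had 1527, 3042, 4230, 4463 and 4952 genes with a read, in the order given, beside a lesion median of 2965. The part of nccrp1, or of the number of genes, in the levels of the 3 genes was not tested. The share of all measured genes with such splits is not given here, and the split was named after its values were seen. These counts are therefore not read as particular to cells with any of the 3 genes. No lymphocyte marker was detected in any cell.

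The genes with the pattern most like each of the 3 were those with the highest Pearson's r of log2(CPM + 1) over the 67 cells, among 5169 genes detected in at least 8 cells. For isg15 they included STARD3 at 0.55, KRTCAP2 at 0.52, PLA2G6 at 0.48 and fam133b at 0.47. For ifi27.1 the highest were si:dkey-228a15.1 and zgc:103438 at 0.52, and for rsad2 NNT and COG2 at 0.47. None of the 15 genes chosen in this way was on the interferon list. These correlations are weak and the counts sparse: over lesion cells alone, 1 of the 5 genes most like isg15, 1 of those most like ifi27.1 and 0 of those most like rsad2 remained among the first 5.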

How the data were processed

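Each sample was 1 sorted cell, and its group came from the treatment label. The authors deposited raw counts of reads for all cells in a single table, without normalization. The tools named in the submitters' processing notes are bcl2fastq 2.19.1, GSNAP with the GRCz10 genome, and featureCounts 1.6.2. The file header names featureCounts 1.6.3, Ensembl 87 genes, unstranded counting and 1 as the lowest mapping quality, and it sets no option to count multi-mapped reads. Reads of near-identical copies may therefore be lost. The library kit is not given in the sources used here, and reads were not collapsed to molecules, so all intervals cover counting error only.

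The 92 spike-in rows (71 reads) were left out of totals. All 67 cells passed 10000 reads and 500 genes, and no doublet caller was run. Levels are reads over all gene reads of the cell or of the summed cells, in CPM. Log2 ratios used 1 CPM added to both groups, and a group with 0 reads was set to a floor of 3 reads over the group, giving a bound. With 1 pool per group no test was made and no p-value is given. Log2 ratios and the search for similar genes were checked on simulated counts, and intervals were not checked in this way. Python 3.11.15, pandas 2.3.3, scipy 1.17.1, edgeR 4.0.16 (TMM) and DESeq2 1.42.0 (size factors) were used.

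The 3 genes, the gene lists and the marker lists were chosen with earlier results of these data known. Besides the 3 genes, the genes named are, in each role of the interferon list, up to 4 measured genes with the highest mean CPM, and for each of the 3 genes the 5 with the highest Pearson's r; the others are named for a place in the genome or a count, after their values were seen. Alternatives were other scalings, pseudocounts, detection thresholds, filters and plp1b thresholds, thinned cells, plate rows B to E or F to H alone, and cells left out. Sequences are not printed here, and some genes are not reported.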

Additional observations from a re-analysis of the deposited data

How the results depend on the processing

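No paired analysis was possible because each group was 1 pool of cords, the replicate numbers of the cells follow accession order and no result came from a test. Of 337 recomputed values, 255 stayed within their counting error and 82 moved beyond it, and no ratio of isg15, ifi27.1 or rsad2 turned direction where it could be computed. Some single genes of the list with ratios near 0, ifi27.4 and b2ml among them, turned sign with TMM and DESeq2 scaling. The cause of each move was not tested, apart from what the setting itself takes away. Over all cells the log2 ratio of isg15 was 3.62 with TMM, 3.56 with DESeq2 factors, 3.36 as a mean of per-cell CPM, 3.41 with 10 CPM added, 3.34 in plate rows B to E, 5.04 in rows F to H, 4.14 without the highest cell of each group and 4.48 in thinned cells. That of ifi27.1 was 3.35, 3.29 and 3.27 with TMM, DESeq2 and 10 CPM added, 4.62 in rows B to E, 2.22 in rows F to H and 2.74 without the highest cells. That of rsad2 was -1.89, -1.95, -1.81 and -1.48 with TMM, DESeq2, the mean of cells and 10 CPM added, -7.16 in rows B to E, -0.28 in rows F to H, -2.22 without the highest cells and -1.15 without cells of over 5000 genes. In plp1b-high cells, isg15 gave 3.54 with TMM, 3.16 as a mean of cells, 3.30 with 10 CPM added, 2.84 and 5.12 in the upper (B to E) and lower (F to H) plate rows, 3.93 without the highest cells and 4.18 thinned. ifi27.1 gave 1.42, 1.37 and 1.37 with TMM, the mean of cells and 10 CPM added, 0.31 in rows B to E and 1.28 thinned. rsad2 gave -1.84 with 10 CPM added, -7.67 (a bound, since lesion had no read) and -1.01 in the upper (B to E) and lower (F to H) plate rows, -3.29 without the highest cells and -1.55 without cells of over 5000 genes. In plp1b-low cells, isg15 gave bounds of 7.48 and 6.01 in the upper (B to E) and lower (F to H) plate rows, 6.78 without the highest cell and 7.57 thinned. ifi27.1 (bounds where sham had no read left) gave 5.14 and 5.07 with the mean of cells and 10 CPM added, 8.77 and 3.47 in the upper (B to E) and lower (F to H) plate rows, 7.23 without the highest cells and 8.84 thinned, and rsad2 gave 2.67 with 10 CPM added.

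Leaving out each cell in turn gave 3.50 to 4.52 for isg15, 2.18 to 4.16 for ifi27.1 and -2.60 to -1.26 for rsad2 over all cells. In plp1b-high cells it gave 3.30 to 4.36, 0.98 to 2.185 and -3.67 to -1.67, and in plp1b-low cells 6.96 to 8.19, 3.94 to 9.12 and 5.23 to 5.49. The last range, for rsad2, leaves out the cell that carries it: without G11, rsad2 stood at 0.355 CPM in lesion and 0.388 CPM in sham, both under the floor, and no ratio is given. The share of sham plp1b-low cells with ifi27.1 was 0 when thinned and in rows B to E, and that of lesion cells with rsad2 was 0 in rows B to E, in each plp1b class too. All 3 genes together were found in 0 sham cells with 20 or more reads required and in rows F to H, and in 0 lesion cells in rows B to E. Of the interferon list 15 genes were higher at 4-fold, and with no filter 46 were higher and 15 lower. By Spearman's rho 3 of the 5 most similar genes remained for each of the 3 genes, and over lesion cells alone 1, 1 and 0. No value could be given for rsad2 in plp1b-low cells where both groups were at or under the floor, nor for isg15 there with another pseudocount, since its value is a bound. Detection in a cell took 5 reads, so a gene not detected in a cell may still be expressed there.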

Other observations

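Many genes of the interferon list fell under the measurement filter. Of the 82 matched genes that were not measured, 34 were detected in at least 1 cell. Of these, 25 (73.5%) were detected in lesion cells alone, 5 (14.7%) in sham cells alone and 4 in both groups. Over all 4920 genes of the table that were detected in some cell but not measured, 55.5% were detected in lesion cells alone and 29.4% in sham cells alone, so an excess in lesion was general. Lesion cells had reads of a median of 2965 genes and sham cells of 2256. Each of the 34 was detected in 1 to 3 cells, and 25 of the 82 had no read in any cell. Among the genes that act on ISG15 itself, usp18, which removes ISG15 from proteins in mammals, was detected in 0 sham and 2 lesion cells, and uba7, which activates ISG15 in mammals, had 1 read in all.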
